A study of Mus musculus with 8 samples.

Results

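The 45 genes described here encode members of the nuclear receptor family. They were taken by name from the family's subfamilies Nr1 to Nr6 and make up 45 of the 21631 protein-coding genes of the RefSeq table for GRCm38.p6, the assembly also known as mm10. Subfamily Nr1 supplied 19 genes, Nr2 12, Nr3 8, Nr4 3, Nr5 2 and Nr6 1. All 45 names were found in the table. The data are ATAC-seq peak lists, one for each of 8 libraries. ATAC-seq marks open chromatin by the cuts of a transposase. The libraries were made from magnetically isolated amygdala neurons of C57BL/6J males. The amygdala had received an AAV with a guide to the Rosa26 locus (sgRosa, 4 libraries) or one with a guide to Nr2f2 (sgNr2f2, 4 libraries). Vectors were expressed for more than 2 weeks. Every mouse, controls included, then went through tube restraint for 7 days, fear conditioning for 1 day and extinction for 3. There was no unstressed group, so nothing here measures a response to stress, and peak lists do not show how much Nr2f2 was lost. The design text gives 4 mice for each guide but does not tie a library to a mouse, and p-values measure only the spread between these libraries.

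Nuclear receptors are transcription factors, many of which are switched by small lipid-soluble ligands such as steroids, thyroid hormone, retinoids, bile acids and fatty acids. Most recognise variants of a short DNA element, AGGTCA, as monomers or as dimers on repeats of it. The steroid receptors for glucocorticoids, mineralocorticoids and progesterone use a different, palindromic element. In the brain, the glucocorticoid receptor (Nr3c1) and the mineralocorticoid receptor (Nr3c2) carry the genomic response to corticosteroids. Nr2f2, also called COUP-TFII, is an orphan receptor of the Nr2 subfamily that is often described as a repressor and is expressed in subsets of developing and adult neurons.

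A peak was assigned to a gene when its summit lay in the gene or within 5 kb of it. The full lists held up to 143405 peaks (sgRosa 4), and that of sgNr2f2 4 was the shortest. Unless stated otherwise every list was therefore reduced to its strongest peaks by −log10 p, as many as the shortest list holds (equal lists). The lists were weak throughout: of the peaks in the equal lists, 5.57% to 21.9% passed the authors' q of 0.05. The number of reads behind each list is unknown.

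A family of regulators is often read through its promoters, so stretches upstream of a start that lay under a peak are shown first. RefSeq promoter sequences for GRCm38.p6 matched 41 of the 45 genes with 62 promoters (Thra, Hnf4g, Nr3c1 and Nr5a1 had no entry). Only 9 peaks of the full lists, and 4 of the equal lists, covered any of the 250 bases before one of these starts, each at a different gene. In 6 of the 9 the start lay inside the gene, so that bases before it also belong to the gene. At Nr1h5 and Esrra the start lay only 158 and 240 bp inside, so that part of the 250 bases lay outside the gene. The sequences below are those of the 3 whose start is the outer edge of the gene. All 3 peaks were in the full lists only. Each run is 5′ to 3′ on the gene's strand and ends 1 base before the start, and capitals mark the bases under the peak. They are Nr1d2 at chr14:18239107-18239356 (minus strand, peak in sgRosa 1), Esr2 at chr12:76177260-76177509 (minus strand, sgNr2f2 1) and Vdr at chr15:97908297-97908546 (minus strand, sgNr2f2 2).
Nr1d2: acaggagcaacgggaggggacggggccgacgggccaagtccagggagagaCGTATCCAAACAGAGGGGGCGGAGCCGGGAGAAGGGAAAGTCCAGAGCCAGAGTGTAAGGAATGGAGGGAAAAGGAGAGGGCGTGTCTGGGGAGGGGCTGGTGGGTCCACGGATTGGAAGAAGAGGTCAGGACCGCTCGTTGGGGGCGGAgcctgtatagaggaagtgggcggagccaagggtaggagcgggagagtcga
Esr2: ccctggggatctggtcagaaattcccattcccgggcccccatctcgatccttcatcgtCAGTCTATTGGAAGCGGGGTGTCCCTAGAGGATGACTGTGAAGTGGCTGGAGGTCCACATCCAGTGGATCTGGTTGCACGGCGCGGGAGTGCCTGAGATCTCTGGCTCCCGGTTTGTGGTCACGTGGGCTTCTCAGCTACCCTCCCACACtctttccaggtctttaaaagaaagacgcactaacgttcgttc
Vdr: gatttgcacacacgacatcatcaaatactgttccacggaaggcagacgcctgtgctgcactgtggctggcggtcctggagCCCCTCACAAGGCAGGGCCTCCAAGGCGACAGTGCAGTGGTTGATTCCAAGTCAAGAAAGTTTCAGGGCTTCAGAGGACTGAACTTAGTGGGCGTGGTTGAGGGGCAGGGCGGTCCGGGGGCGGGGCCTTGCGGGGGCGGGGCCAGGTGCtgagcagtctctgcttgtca

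Each of these peaks covered 150 of the 250 bases, and 150 bp is the narrowest width in any list. Their −log10 p was 2.65 at Nr1d2, 2.53 at Esr2 and 2.13 at Vdr, where the lowest in any list was 2.00. Nr1d2 (REV-ERB beta) is a repressor of the circadian clock, Esr2 encodes the estrogen receptor beta and Vdr the vitamin D receptor. In the Nr1d2 sequence the half-site AGGTCA begins 77 bases before the start and lies inside the capitals. On neither strand was AGGTCA found in the Esr2 or Vdr sequence. Their fold enrichments over background, as the authors' caller gave them, were 2.2 at Nr1d2, 2.19 at Esr2 and 2.08 at Vdr. The 4 peaks of the equal lists were at starts inside Nr2c1 (sgNr2f2 3, fold enrichment 2.87), Nr1h5 (sgNr2f2 4, 2.68), Pgr (sgNr2f2 4, 2.65) and Rxra (sgNr2f2 4, 2.46). The Rxra start lay 32847 bp inside the gene, and AGGTCA was found before it on both strands, in neither case under the peak. Nr2c1 (TR2) is an orphan receptor gene, Nr1h5 the second farnesoid X receptor gene of the mouse, Pgr the progesterone receptor gene and Rxra that of the retinoid X receptor alpha. None of these 7 peaks passed the q of 0.05.

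Across the 62 promoters, here 250 bases before to 50 after a start and searched on both strands, AGGTCA was present in 11, or 17.7%, against 16.3% of all 32851 promoters. AAAGGTCA, every match of which is also a match of AGGTCA, was present in 2 (Rxra and Rxrg), or 3.23% against 1.51%. A direct repeat of AGGTCA with 1 base between the copies, the estrogen receptor palindrome (GGTCA and its reverse complement with 3 bases between) and the corticosteroid receptor palindrome (GNACA and its reverse complement with 3 bases between) were in none of the 62, and in 0.0396%, 0.0700% and 0.475% of all promoters. The promoters of the receptor genes had more G and C, with a median of 58.8% against 52.7%, and a median of 13 CG dinucleotides against 7. The share of promoters with a half-site was thus near that of promoters at large, while base composition was not.

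Together the receptor genes held 109, 146, 127 and 132 peaks in libraries 1 to 4 of sgRosa, and 180, 127, 141 and 173 in those of sgNr2f2. The mean of the sgRosa libraries was 128.5 ± 15.3 and that of the sgNr2f2 libraries 155.25 ± 25.4 (SD, n = 4 for either group), or 2.39 ± 0.284 and 2.88 ± 0.471 per 1000 listed peaks. The sgNr2f2 libraries were the higher on average, but the groups overlapped: sgNr2f2 2 lay below sgRosa 2 and 4. The windows of all protein-coding genes differed in the same direction, holding 47.8 ± 2.70% of the listed peaks in sgRosa and 52.1 ± 2.72% in sgNr2f2. The summed peaks at 6 astrocyte marker genes, all 6 with a peak somewhere, were 6 to 10 in sgRosa and 13 to 22 in sgNr2f2 and did not overlap. No single one of these genes separated the groups: 5 had the higher mean in sgNr2f2 and 1, Aqp4, equal means. Slc1a2 (11 peaks in sgRosa and 24 in sgNr2f2) and Aldh1l1 (6 and 16) differed most. How often sums over other sets of genes separate the groups was not computed. At 9 neuron marker genes, all with a peak, the sums were 35 to 48 in sgRosa and 31 to 43 in sgNr2f2. The ranges were 1 to 9 and 4 to 10 at 5 oligodendrocyte markers, 1 of which had no peak, 2 to 6 and 3 to 7 at 5 microglial markers, and 4 to 12 and 6 to 8 at 4 vascular markers. The part of these other cell types in the totals was not tested. Relative to length and over the 8 libraries together, the astrocyte markers (1.45 times the density of all genes) were no poorer in peaks than the neuron markers (1.27 times). These ratios pool 2 groups that differed in opposite directions. Mean sums were 8 in sgRosa and 16.25 in sgNr2f2 at the astrocyte markers, and 42.5 and 36.5 at the neuron markers. The ratios were not computed for each group, so they do not show whether peak density marked either group's libraries as neuronal. In bulk samples, fewer cells of a type and less signal per cell cannot be told apart.

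Every receptor gene had a peak in at least 1 library, against 88.9% of all protein-coding genes. The 9 genes with a peak in all 8 libraries were Thrb, Rarb, Rora, Rorb, Rxra, Esr1, Esrrb, Esrrg and Nr3c2, or 20% of the family against 10.4% of all genes. The windows of the receptor genes were longer, with a median of 59.7 kb against 27.3 kb, and held a median of 14 peaks against 5. The shares given here and the median difference below were not adjusted for length. The mean count was higher in sgNr2f2 at 30 genes, higher in sgRosa at 14 and equal at Vdr. Over all genes 44.1% were higher in sgNr2f2 and 32.6% in sgRosa, the rest being equal, most of them with few or no peaks. The median difference was 0.5 peaks over the family and 0 over all genes. The counts of the groups overlapped at each of the 45 genes. Over all genes 1.02% did not overlap (0.707% with sgNr2f2 higher and 0.314% with sgNr2f2 lower), and in the full lists 0.712%, none of them a receptor gene. Non-overlap is the smallest p, 0.0286 two-sided, that the exact permutation test over the 70 assignments of 4 against 4 can give, and the Benjamini-Hochberg adjusted p was 1 for every receptor gene. In limma on log2(peaks + 1), called genes were 0% of the 17321 tested and the unadjusted p was under 0.05 for 901 of them (5.2%), among them 4 of the 45 receptor genes (8.89%). Those 4, described below with an adjusted p of 0.800 each, were Nr1i2, Rxra, Hnf4g and Nr5a2.

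**Figure D1:**
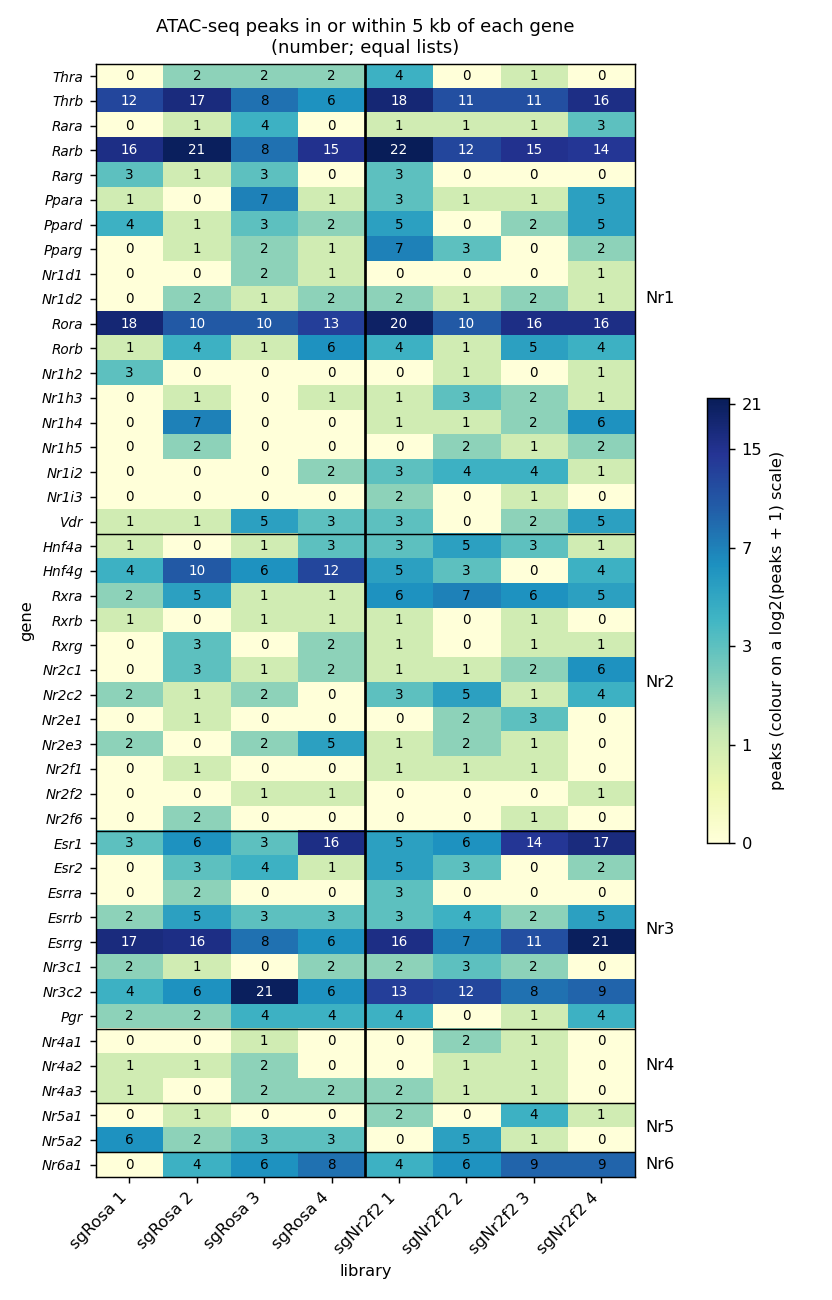
Number of peaks with the summit in or within 5 kb of each of the 45 genes (rows, grouped by subfamily) in each library (columns), from the equal lists; colour follows log2(peaks + 1). Long genes such as Rarb, Rora, Thrb, Esrrg and Nr3c2 carry most peaks, and no row separates the 4 sgRosa from the 4 sgNr2f2 libraries.

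The count at a gene followed its length. Over the 45 genes the total count correlated with the length of the window with Pearson's r = 0.970 and Spearman's rho = 0.940. This is a description across genes, which share the same libraries and are not independent replicates. The 7 genes with windows over 200 kb (Rarb, Rora, Thrb, Esr1, Esrrg, Nr3c2 and Nr6a1) held 632 of the 1137 peaks counted per gene, or 55.6%, in 58.7% of the length. Per length the family held 24.6 peaks per Mb and library, and all protein-coding genes 23.1. The density exceeded that of all genes at 32 receptor genes and fell short of it at 13, with a median ratio of 1.20. The highest ratio, 2.51, was at Nr2e3, a photoreceptor transcription factor gene, and the lowest, 0.547, at Nr3c1.

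**Figure D2:**
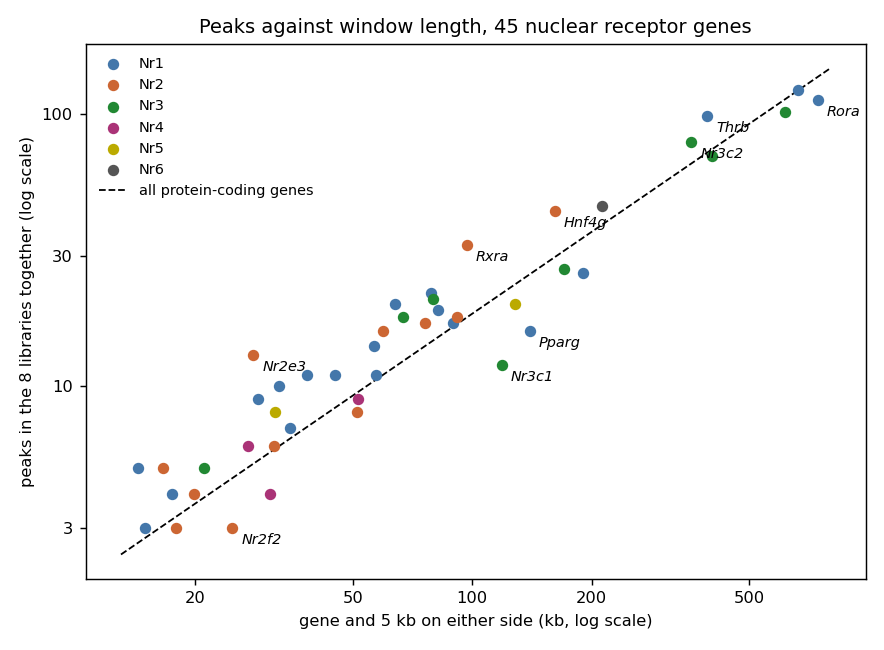
Peaks in the 8 libraries together against the length of each gene with 5 kb on either side, both on log scales, one point per gene, coloured by subfamily; the dashed line is the density of all protein-coding genes, 23.1 peaks per Mb and library. The points follow the line, with Nr2e3 and Rxra above it and Nr3c1, Pparg and Nr2f2 below.

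The surroundings were nearly as rich in peaks as the genes themselves. The ratio of the density in the windows to that in the 1 Mb on either side was 0.923, 1.15, 0.931 and 1.05 in the sgRosa libraries and 1.26, 0.986, 0.884 and 1.25 in the sgNr2f2 libraries. The sgRosa mean was 1.01 ± 0.109 and the sgNr2f2 mean 1.10 ± 0.190 (SD of 4 libraries), and the groups overlapped. For all protein-coding genes the ratio was 1.06 ± 0.0289 over the 8 libraries, from 1.02 to 1.10. The family thus lay above its surroundings in 4 libraries and below them in 4, whereas all genes together lay slightly above theirs in each. Gene by gene, 31 receptor genes had a higher density than their surroundings and 14 a lower one, with a median ratio of 1.12. Nr2e3 had 3.21 times and Pgr 2.02 times the density of its surroundings, and Nr3c1 0.608 times.

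**Figure D3:**
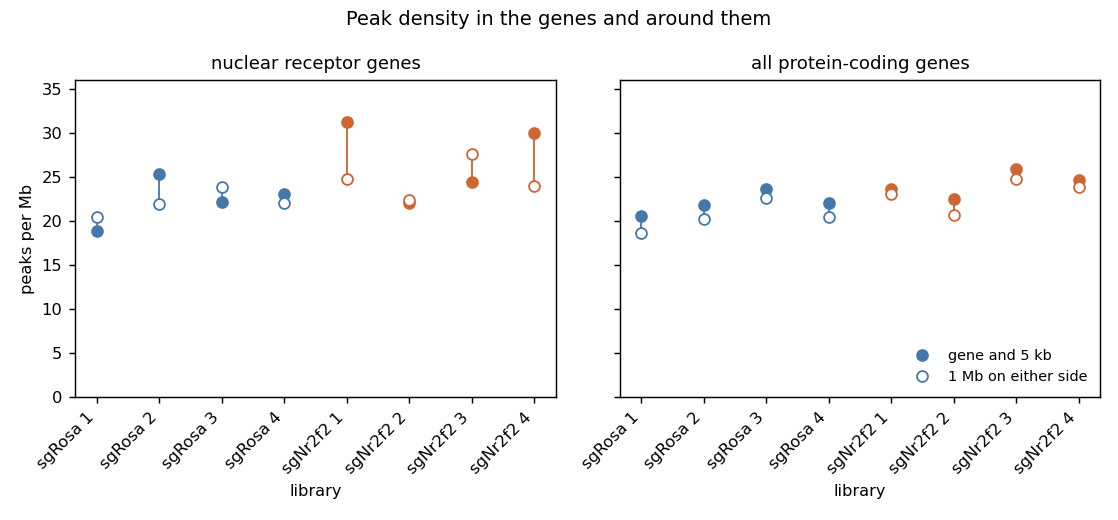
Peaks per Mb in each library inside the gene windows (filled) and in the 1 Mb on either side (open), for the 45 receptor genes (left) and all protein-coding genes (right). For the receptor genes the filled point is above the open one in 4 of the 8 libraries; for all genes it is above in each of the 8.

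Peaks at gene ends, within 1 kb of either end, were few. Over the family they numbered 6, 9, 7 and 8 in the sgRosa libraries and 6, 5, 12 and 4 in the sgNr2f2 libraries, 57 in all. Per length, their density divided by that in the rest of the window was 1.81, 2.04, 1.80 and 1.99 in sgRosa and 1.07, 1.27, 2.89 and 0.735 in sgNr2f2. The 4 sgRosa values were close together, at 1.91 ± 0.124, and the sgNr2f2 values, at 1.49 ± 0.957, lay on both sides of them (SD of 4 libraries). For all genes the ratio averaged 1.17 ± 0.133 over the 8 libraries. The ratio of the family exceeded that of all genes in 6 libraries and was below it in sgNr2f2 1 and 4. Among the 41 genes with a known strand, 32 of the end peaks lay at the start and 18 at the far end. Of all peaks of the family 90.9% lay inside the gene. Most of the window length also lay inside the genes: the windows summed to 5.77 Mb and added only 5 kb on either side of each gene. The exact share was not computed, and 90.9% cannot be read as a preference for the gene. An end peak was found at 31 genes in the equal lists, in at most 3 libraries each, and at 39 in the full lists. For all genes, neither the split between start and far end nor the share with an end peak was computed.

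In the full lists 3 genes had an end peak, at either end, in 4 or more libraries: Nr1d2 in 6, Rxra in 4 and Nr2c1 in 4. How many of all genes had this was not computed, so these 3 cannot be called unusual. At Nr1d2 (chr14:18204056-18239106) the peaks fell into separate places. At its far end the peaks of sgNr2f2 1, sgNr2f2 2 and sgRosa 4 formed one overlapping region, chr14:18203679-18204003, with fold enrichments of 2.39, 2.99 and 2.72. Near its start, inside the gene, the peaks of sgNr2f2 3 (chr14:18238426-18238575) and sgRosa 4 (chr14:18238534-18238683) overlapped, with fold enrichments of 2.49 and 2.33. The sgRosa 1 peak shown above and that of sgRosa 2, both outside the gene at its start, did not overlap any other. At Nr2c1 the peaks of sgRosa 2, sgRosa 4 and sgNr2f2 3 formed a region at chr10:94146813-94147162, upstream of the gene, with fold enrichments of 2.87, 2.63 and 2.68. The far-end region of Nr1d2 and the region upstream of Nr2c1 each held libraries of both groups, and none of their 6 peaks passed the q of 0.05.

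By subfamily, the density relative to all genes was 1.05 ± 0.236 for Nr1, 1.37 ± 0.370 for Nr2, 0.983 ± 0.177 for Nr3, 0.941 ± 0.617 for Nr4, 0.965 ± 0.498 for Nr5 and 1.14 ± 0.585 for Nr6 (SD over the 8 libraries). Nr2 had the highest mean, and its range over libraries, 0.865 to 1.81, overlapped those of the other subfamilies. The small subfamilies rest on few peaks: 19 for Nr4, 28 for Nr5 and 46 for Nr6 in the 8 libraries, against 540 for Nr1, 334 for Nr3 and 170 for Nr2. Between the groups, Nr1 had 21.7 ± 2.65 peaks per Mb in sgRosa and 26.9 ± 7.48 in sgNr2f2, Nr2 29.6 ± 11.3 and 33.3 ± 3.72, and Nr3 20.7 ± 3.12 and 24.8 ± 5.91 (SD of 4 libraries). For Nr4 the values were 22.8 ± 15.8 and 20.6 ± 15.6, for Nr5 23.5 ± 9.39 and 20.3 ± 12.9, and for Nr6 21.1 ± 16 and 32.8 ± 11.5. The groups overlapped in every subfamily.

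**Figure D4:**
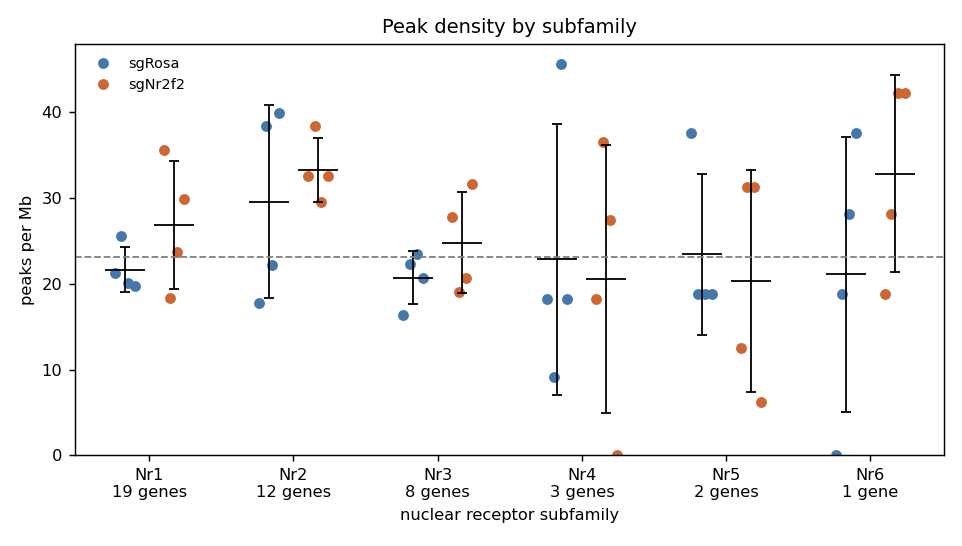
Peaks per Mb of gene window for each subfamily and library (points), with the mean and SD of 4 libraries per group (black) and the mean density of all protein-coding genes (dashed). The sgRosa and sgNr2f2 points overlap in all 6 subfamilies, and the SD over the 8 libraries is larger in Nr4, Nr5 and Nr6 than in Nr1, Nr2 and Nr3.

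The corticosteroid receptors belong to Nr3. At Nr3c1, the glucocorticoid receptor gene (chr18:39410545-39519421), there were 2, 1, 0 and 2 peaks in sgRosa and 2, 3, 2 and 0 in sgNr2f2. One library of each group had none, and the groups overlapped (means 1.25 and 1.75, exact permutation p = 0.771 two-sided, n = 4 each, adjusted p = 1). The full lists changed little here, with 2, 1, 0 and 4 against 5, 3, 2 and 0. At the end of Nr3c1 with the lower coordinate, a peak lay within 1 kb outside the gene in sgRosa 1 (chr18:39409876-39410027, passing the q of 0.05), in sgNr2f2 3 (chr18:39409682-39409860) and, in the full lists only, in sgNr2f2 1 (chr18:39409725-39409874). The last pair overlapped and the sgRosa 1 peak lay beside them.

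At Nr3c2, the mineralocorticoid receptor gene (chr8:76898083-77245012), the counts were 4, 6, 21 and 6 in sgRosa and 13, 12, 8 and 9 in sgNr2f2. The sgRosa 3 library stood far above all others and the other 3 sgRosa libraries below all of sgNr2f2. With all libraries the means were 9.25 ± 7.89 and 10.5 ± 2.38 (exact permutation p = 0.857 two-sided, n = 4 each, adjusted p = 1). Without sgRosa 3 the groups did not overlap and the difference was 5.17 peaks rather than 1.25, in a comparison in which 2.21% of all genes did not overlap. Without sgRosa 1, and in the strongest 50% of each equal list, the difference was -0.50 peaks, and the direction turned. In the full lists the counts were 5, 6, 23 and 17 against 25, 25, 12 and 9, and the groups overlapped with or without that library. The density at Nr3c2 was 1.20 times that of all genes and 1.36 times that of its surroundings, and both ratios were below 1 at Nr3c1. Of the peaks at Nr3c2, 7 passed the q of 0.05, against 3 at Nr3c1. Of the 7, 4 were in sgRosa 1, 1 in sgRosa 4, 1 in sgNr2f2 1 and 1 in sgNr2f2 3, so that without sgRosa 1 there was 1 in sgRosa. The strongest at Nr3c2 were at chr8:77019554-77019774 in sgNr2f2 3 (fold enrichment 3.83) and chr8:77055522-77055714 in sgRosa 1 (fold enrichment 3.80).

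**Figure D5:**
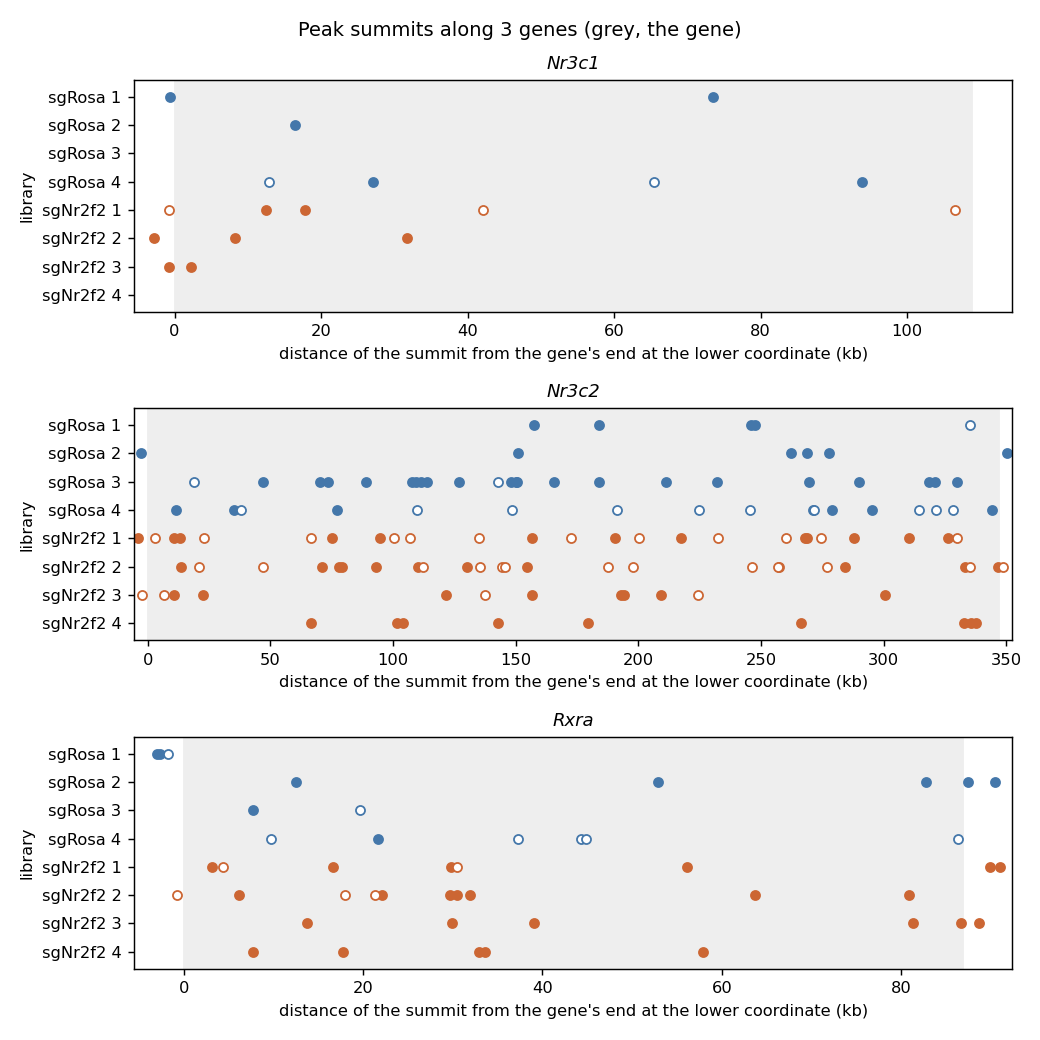
Peak summits in each library along Nr3c1, Nr3c2 and Rxra, in kb from the gene's end at the lower coordinate; grey is the gene, filled points are in the equal lists and open points only in the full lists. The summits are scattered over each gene. At Rxra, summits of sgNr2f2 1, 2 and 3 come together near 30 kb.

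The other genes of Nr3 encode the progesterone, estrogen and estrogen-related receptors. Pgr had 2, 2, 4 and 4 peaks in sgRosa and 4, 0, 1 and 4 in sgNr2f2. Esr1, for estrogen receptor alpha, had 3, 6, 3 and 16 against 5, 6, 14 and 17, with 1 library of sgRosa close to the top of sgNr2f2. Esrrg, for an orphan relative expressed in neurons, had 17, 16, 8 and 6 against 16, 7, 11 and 21. In each of these the range of one group covered or crossed that of the other, and the direction of the difference turned in an alternative: to 0.75 peaks in the full lists at Pgr, to -0.50 in the strongest 50% of each equal list at Esr1 and to -2.75 in the full lists at Esrrg. Esr2, Esrra and Esrrb held 18, 5 and 27 peaks in the 8 libraries and differed by 0.5 peaks or less between the group means.

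Nr2f2 itself (chr7:70351946-70366746) was almost without peaks: 0, 0, 1 and 1 in sgRosa and 0, 0, 0 and 1 in sgNr2f2. With 7 peaks in the full lists (0, 0, 1 and 2 against 2, 1, 0 and 1) no difference could be seen at this depth, and the position of the guide was not given in the sources used here. Its closest relative Nr2f1 (chr13:78188971-78198873), for COUP-TFI, had 0, 1, 0 and 0 against 1, 1, 1 and 0. Both genes are short, and the density at Nr2f2 was 0.655 times that of all genes. Nr2f6, the third COUP-TF relative, had 3 peaks in all.

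Rxra (chr2:27676445-27763319), for the retinoid X receptor alpha that partners many other nuclear receptors, had 2, 5, 1 and 1 peaks in sgRosa and 6, 7, 6 and 5 in sgNr2f2. The groups met at 5, in sgRosa 2 and sgNr2f2 4. Means were 2.25 ± 1.89 and 6 ± 0.816 (exact permutation p = 0.0571 two-sided, n = 4 each, adjusted p = 1), and limma gave a log2 difference of 1.26 (SE 0.54, adjusted p = 0.800). The full lists had 3, 5, 2 and 6 against 8, 10, 6 and 5, where sgRosa 4 also reached the sgNr2f2 range. Leaving out sgRosa 2 or sgNr2f2 4 separated the groups, as it did at 1.96% and 1.95% of all genes. In the strongest 50% of each equal list, where 123 genes separated the groups, Rxra did not, and its difference was 0.75 peaks. The other retinoid X receptor genes held fewer peaks, 5 at Rxrb and 8 at Rxrg, and differed by 0.5 peaks or less between the group means.

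Hnf4g, for a receptor of the HNF4 group known from gut and kidney, had the higher mean in sgRosa. It had 4, 10, 6 and 12 peaks in sgRosa and 5, 3, 0 and 4 in sgNr2f2. The means were 8 ± 3.65 and 3 ± 2.16, the groups overlapping at 4 and 5 (exact permutation p = 0.0857 two-sided, n = 4 each, adjusted p = 1, limma log2 difference -1.35, SE 0.54, adjusted p = 0.800). Of its 8 peaks past the q of 0.05, 7 were in sgRosa, with 4 of them in sgRosa 4, 2 in sgRosa 1, 1 in sgRosa 3 and none in sgRosa 2. Leaving out sgRosa 1 separated the groups, as at 1.89% of all genes. Hnf4a, its paralogue, had 1, 0, 1 and 3 against 3, 5, 3 and 1, so the means of the HNF4 genes differed in opposite directions. Of the remaining Nr2 genes, Nr2e3 had 2, 0, 2 and 5 against 1, 2, 1 and 0, and Nr2c1 and Nr2e1 held 16 and 6 peaks with higher means in sgNr2f2. Nr2c2, for the orphan receptor TR4, had 2, 1, 2 and 0 against 3, 5, 1 and 4, and leaving out sgNr2f2 3 separated the groups, as at 1.97% of all genes.

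In Nr1 the longest genes carried most peaks. Rarb, for the retinoic acid receptor beta, had 16, 21, 8 and 15 in sgRosa and 22, 12, 15 and 14 in sgNr2f2. Rora, for an orphan receptor of the clock and of cerebellar development, had 18, 10, 10 and 13 against 20, 10, 16 and 16. Thrb, for the thyroid hormone receptor beta, had 12, 17, 8 and 6 against 18, 11, 11 and 16. All 3 had higher means in sgNr2f2 by 0.75, 2.75 and 3.25 peaks, with overlapping groups. At Rarb the difference was -1.58 without sgRosa 3 and -1.33 without sgNr2f2 1. In the strongest 50% of each equal list the counts at Rora did not overlap between the groups, in a setting where 0.569% of all genes did not. Their relatives were lower: 11 peaks at Thra, 11 at Rara, 10 at Rarg and 26 at Rorb. Thra and Nr1d1 lie so close that 11075 bp of their windows are shared, and 2 peaks were counted at both.

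Nr1i2, for the pregnane X receptor that senses foreign compounds in liver and gut, had 0, 0, 0 and 2 peaks in sgRosa and 3, 4, 4 and 1 in sgNr2f2. Its single occupied sgRosa library exceeded the lowest of sgNr2f2. The limma log2 difference was 1.51 (SE 0.56, adjusted p = 0.800; exact permutation p = 0.0571 two-sided, n = 4 each, adjusted p = 1). The groups did not overlap without sgRosa 4 (2.06% of all genes), without sgNr2f2 4 (1.95%) or in the strongest 50% of each equal list (0.569%). Nr1i3, the related xenobiotic receptor CAR, had 3 peaks, all in sgNr2f2 libraries 1 and 3. The PPAR genes, for fatty acid sensors, held 19 (Ppara), 22 (Ppard) and 16 (Pparg), and Pparg had 0, 1, 2 and 1 against 7, 3, 0 and 2. The oxysterol and bile acid receptor genes Nr1h2, Nr1h3, Nr1h4 and Nr1h5 held 5, 9, 17 and 7. At Nr1h4 most peaks came from 2 libraries, with 0, 7, 0 and 0 against 1, 1, 2 and 6. Without sgRosa 2, Nr1h4 did not overlap between the groups, nor did 1.96% of all genes. The clock repressor genes Nr1d1 and Nr1d2 held 4 and 11, and Vdr, for the vitamin D receptor, 20.

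The Nr4 genes are induced quickly by neuronal activity and by stressors. They held little: Nr4a1 had 0, 0, 1 and 0 peaks in sgRosa and 0, 2, 1 and 0 in sgNr2f2, Nr4a2 1, 1, 2 and 0 against 0, 1, 1 and 0, and Nr4a3 1, 0, 2 and 2 against 2, 1, 1 and 0. No difference between the groups was detectable at counts this low. Nr5a2, for an orphan receptor of liver and pancreas, had 6, 2, 3 and 3 against 0, 5, 1 and 0 (limma log2 difference -1.20, SE 0.58, adjusted p = 0.800), and without sgNr2f2 2 the groups did not overlap, nor did those of 2.27% of all genes. Nr5a1, the steroidogenic factor gene, had 0, 1, 0 and 0 against 2, 0, 4 and 1. Nr6a1, for the germ cell nuclear factor, had 0, 4, 6 and 8 against 4, 6, 9 and 9. Of its 8 peaks past the q of 0.05, 7 were in sgNr2f2, with 1, 1, 3 and 2 in libraries 1 to 4, and 1 was in sgRosa 4.

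The peaks of the family were of ordinary strength. Their median fold enrichment was 2.74 ± 0.127 over the 8 libraries, against 2.76 ± 0.127 for the lists, and the median width was 172 bp in members against 171 bp. None ranked among the strongest 300 of its library. The best, rank 335 in sgNr2f2 2, was at chr2:27698442-27698700 inside Rxra, with a fold enrichment of 4.38 and a −log10 p of 8.51. In the sgRosa libraries 25.7%, 2.74%, 10.2% and 18.9% of the family's peaks passed the q of 0.05, and in the sgNr2f2 libraries 13.3%, 8.66%, 17% and 13.9%. These shares were below those of the whole list in 6 libraries and above them in sgRosa 1 and sgNr2f2 4. The 153 peaks past that q lay at 36 of the 45 genes. Rora had 25, Rarb 14, Thrb 12 and Esr1 9, and at 8 genes 1 such peak lay at a gene end. The share of all genes with such a peak in any library was not computed. In at least 2 libraries it was found at 24 of the 45 genes and at 5949 of all 21631 protein-coding genes. These counts were not adjusted for length, and Rora, Rarb, Thrb and Esr1 have some of the longest windows of the family.

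Few positions recurred. Merging overlapping peaks gave 1086 regions at the receptor genes, of which 1039 (95.7%) held peaks of 1 library, 45 of 2, 2 of 3 and none of more. The share in 2 or more libraries was 4.33% (95% Wilson interval 3.27% to 5.71%, counting error only), and over the genome 5.13%. Both regions of 3 libraries held peaks of sgNr2f2 1, 2 and 3 and of no sgRosa library, where 87 of all 405567 regions (0.0215%) were in any 3 sgNr2f2 libraries and no sgRosa library. At Rxra the region was chr2:27706094-27706392, 29798 bp inside the gene from its start, with fold enrichments of 2.60, 2.82 and 2.68 in sgNr2f2 1, 2 and 3. The sgNr2f2 2 peak ended there at base 27706243, where the sgNr2f2 3 peak began. At Thrb the region was chr14:17863741-17864248, with fold enrichments of 2.59, 3.23 and 2.49. The Thrb summits lay apart, at 17864236, 17863814 and 17864119 in sgNr2f2 1, 2 and 3. None of these 6 peaks passed the q of 0.05, and the fourth sgNr2f2 library had none at either place.

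Genes that work with the receptors were examined in the same way. The 20 coregulator genes, for proteins that receptors recruit to activate or repress transcription, held 58.75 ± 15.9 peaks per sgRosa library and 66 ± 7.53 per sgNr2f2 library (SD, n = 4). All 20 had a peak, 10 had the higher mean in sgNr2f2 and 9 in sgRosa. Carm1, for an arginine methyltransferase coactivator, had 0, 0, 0 and 2 against 4, 1, 6 and 3. Ncoa2, for a p160 coactivator, had 2, 4, 6 and 4 against 7, 9, 5 and 5, and Tbl1xr1, for a subunit of the NCoR corepressor complex, 7, 6, 3 and 7 against 4, 5, 4 and 1. Of 19 genes for corticosteroid handling and response 17 had a peak, Crh and Tsc22d3 having none, and the sums were 23 ± 3.16 and 23 ± 10.2. Sgk1, a kinase gene induced by corticosteroids, had 1, 6, 3 and 4 against 10, 4, 7 and 1, Zbtb16 4, 2, 6 and 3 against 11, 2, 6 and 3, and the clock gene Per1 2, 3, 1 and 1 against 1, 2, 1 and 2. Among the genes with fewer than 8 peaks, Hsp90ab1, for a chaperone of steroid receptors, had 1, 1, 2 and 1 against 0, 0, 1 and 0. Here 4 genes had the higher mean in sgNr2f2, 8 in sgRosa and 7 had equal means. Of 18 genes for retinoid and thyroid hormone handling 17 had a peak, with sums of 18.25 ± 3.30 and 19.25 ± 5.06, 6 genes higher in sgNr2f2 and 8 in sgRosa. Aldh1a1, for a retinal dehydrogenase, had 3, 3, 5 and 5 against 3, 4, 3 and 2, Aldh1a2 5, 1, 0 and 0 against 2, 0, 2 and 7, and Aldh1a3 1, 0, 1 and 3 against 0, 1, 1 and 1. The ranges of the groups crossed or met at each of these. In none of these lists did a gene separate the groups or pass the adjusted p of 0.05, and the median difference was 0.25 peaks for the coregulators and 0 for corticosteroid handling, against 0 over all genes.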

How the data were processed

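The deposited files are narrowPeak lists, 1 per library, on mm10. Per the submitters' processing notes, the tools were MACS2 2.2.9.1, HOMER 4.10, DiffBind 3.10.0, MultiQC 1.11, fastp 0.23.2, Picard and FastQC 0.11.9. The aligner, treatment of duplicates, shift of cut sites and calling options are not given in the sources used here. Per the deposited files' columns, each peak carries the authors' score, fold enrichment (a ratio) and −log10 p and −log10 q. Intervals listed more than once were collapsed to the highest −log10 p, which removed 3499 lines. Peaks were counted by summit per gene and 5 kb, in full and equal lists. Library groups came from the labels. Groups were compared gene by gene over 21631 genes with exact permutation tests, and with limma 3.58.1 (R 4.3.3, trend) on log2(peaks + 1) over 17321 genes with a peak in at least 2 libraries, with Benjamini-Hochberg adjustment. Gene starts and ends came from RefSeq. The scripts were tested on simulated data. Members and lists were chosen with earlier results of these data known. Genes named in full were both corticosteroid receptors, Nr2f1, Nr2f2, members whose groups do not overlap, the 2 with most peaks in each subfamily, those with gene-end peaks in 4 or more libraries and, of other lists, up to 3 genes with the largest difference over the pooled SD among those with at least 8 peaks. Other genes were named after their values were seen.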

Additional observations from a re-analysis of the deposited data

Results flagged for a closer look

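Among 84 sets of 4 libraries (33 genes with at least 8 peaks, and the subfamilies and family totals), 10 had a library far from the other 3, where chance gives about 1 in 20. The low ones were Thra in sgRosa 1, with 0 peaks, and Rxrg in sgNr2f2 2, with 0. The high ones were Rara in sgNr2f2 4 with 3, Rarg in sgNr2f2 1 with 3, Ppara in sgRosa 3 with 7, Nr1h4 in sgRosa 2 with 7, Nr1i2 in sgRosa 4 with 2 and Nr5a1 in sgRosa 2 with 1. Nr3c2 in sgRosa 3, with 21 peaks, was the gene with the most peaks among them. In subfamily Nr5 the density in sgRosa 1 was 37.6 peaks per Mb. With counts this low the other 3 libraries often tie, and a single peak can then set a library apart.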

How the results depend on the processing

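The number of receptor genes whose groups do not overlap was 0 in the equal lists and in the full lists. It was 2 in the strongest 50% of each equal list (Nr1i2 and Rora; 0.569% of all genes), 1 with the gene body only (0.791%) and 1 with 10 kb on either side (1.23%; Rxra in both), and 0 to 2 when 1 library was left out (1.89% to 2.27%). The labels do not say whether equal replicate numbers share a litter, batch or day. Deviations from the group means of same-numbered libraries correlated at 0.0112, -0.00352, 0.00938 and -0.00871, and those of other pairs from -0.0474 to 0.0315. Few peaks recur between libraries, so such values cannot exclude pairing, and the replicate block only compares equal numbers. With it, 2 genes (Rxra and Nr6a1) differed in the same direction in all 4 pairs, as did 3.09% of all genes, and limma called 0. Limma called no receptor gene in any of 18 settings, the full lists, other filters and each library left out among them. The share of the family's regions in 2 or more libraries was 6.12% in the full lists, against 6.91% over the genome. It was 1.62% in the strongest 50%, 0% among peaks past the q of 0.05 and 2.58% to 4.27% with 1 library left out. With an overlap of at least 75 bp it was 3.18%, and with summits within 100 bp 2.62%. Genome shares in these other settings are not given here, so the changes cannot be read as particular to the receptor genes. The density of subfamily Nr3 relative to all genes was 0.617 with peaks past the q of 0.05. The cause of these changes was not tested. Over the alternatives the difference in the family's peaks per 1000 listed ranged from 0.341 to 0.671, the ratio to the surroundings from 0.943 to 1.08 and the gene-end ratio from 1.41 to 2.06. Of the differences at single genes, 664 values kept within the spread and 11 did not. No gene was called, and in 56 of these 675 values, at 23 genes, the sign was opposite to that in the equal lists. Depth is unknown and limits every count near 0.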
